A study of Mus musculus with 2 samples.

Results

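Conventional dendritic cells (cDC) were read in single-cell RNA data of immune cells from the inflamed mouse colon. A cell was taken as a cDC by UMI counts of its own transcripts, where a UMI is 1 counted RNA molecule. It needed at least 1 UMI of Flt3 or Zbtb46, at least 5 UMIs of H2-Aa, and at least 1 UMI summed over Xcr1, Clec9a, Cd209a, Clec10a and Mgl2. It could have at most 1 UMI summed over Cd79a, Cd79b and Ms4a1, under 5 UMIs summed over C1qa, C1qb and C1qc, at most 1 UMI of Siglech, and none of Cd3e or Fscn1. These conditions chose 96 of 14080 retained cells, 90 of 11155 in the library labelled CKO and 6 of 2925 in the library labelled WT. Inside the cDC, cells with at least 1 UMI of Xcr1 or Clec9a, called cDC1-like, were set against the others, which gave 55 and 35 cells in the CKO library and 4 and 2 cells in the WT library.

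The CKO library held immune cells infiltrating the colon of mice labelled CKO, and the WT library the same kind of cells of mice labelled WT. All mice were C57BL/6, and both groups had experimental colitis. The study's title names loss of RPA1 and T cell necroptosis. The labels spell out neither CKO nor the deleted gene, and the Cre driver, the colitis model, the number of mice pooled and their age and sex are not given either. There was 1 library per label, so no difference between CKO and WT has a replicate check, and genotype, animal, preparation and sequencing run cannot be told apart.

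cDC take up antigen in tissue, carry it to lymph nodes and present it to T cells. They arise from Flt3-dependent precursors and fall into the cDC1 lineage, which depends on Irf8 and Batf3 and is known for cross-presenting antigen of dead cells to CD8 T cells, and the cDC2 lineage, which carries Sirpa and is known for presenting on MHC class II to CD4 T cells. In the gut wall, monocyte-derived cells share much of the cDC2 surface phenotype, and cDC that have matured turn on Ccr7 and Fscn1.

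The cDC were deeply sampled cells. Their median depth was 11103 UMIs in the CKO library and 13543 UMIs in the WT library, against 3347 and 4128 UMIs for all other retained cells of the same libraries. Summed over cells, the CKO cDC held 1092979 UMIs and the WT cDC 97045 UMIs, so that 1 UMI was worth 0.915 CPM (a sum of UMIs scaled to parts per 1000000) in CKO and 10.3 CPM in WT. No cDC barcode occurred in the other library, and 6 barcodes were shared over all cells. All intervals are exact, at 95%, and hold the counting error of UMIs or cells alone.

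The cDC made up 0.807% of retained cells in the CKO library (interval 0.649 to 0.991%) and 0.205% in the WT library (0.0753 to 0.446%). Both shares depend on how many other cells each library holds, and these were 11065 and 2919. The cDC1-like side was 61.1% of cDC in CKO (50.3 to 71.2%) and 66.7% in WT (22.3 to 95.7%), so at this depth the balance of the 2 sides was not distinguishable between the libraries. When each cell was thinned to 2000 UMIs, cells with an Xcr1 or Clec9a UMI were 36.7% of the CKO cDC and 16.7% of the WT cDC. Among B cells, which should lack both transcripts, the unthinned share with such a UMI was 0.117% in CKO (median 3376 UMIs) and 0% in WT (median 4503 UMIs). After the same thinning 1 of 4016 CKO B cells (0.0249%) and 0 of 1278 WT B cells had one.

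Many cells sat at the edge of the conditions that chose them. In CKO, 40 of the 90 cells had exactly 1 UMI of Flt3 and Zbtb46 together, and 65 cells that met every other condition had none. The lectin sum was exactly 1 UMI in 26 CKO cells, and 56 cells that met the other conditions had none. The H2-Aa condition was not close for most cells: the lowest CKO cell had 5 UMIs, the highest cell outside had 2, and the median inside was 71.5. In WT the 6 cells had at least 61 H2-Aa UMIs and at least 3 lectin UMIs, and 3 of them had 1 UMI of Flt3 and Zbtb46.

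The label cDC was checked against markers that the conditions did not use. Cst3, which encodes the protease inhibitor cystatin C and is abundant in cDC, stood at 15246 CPM in CKO cDC against 694 CPM in the other CKO cells, and at 18486 CPM in WT cDC against 386 CPM in the other WT cells. Batf3, the cDC1 transcription factor, was at 81.4 CPM in CKO cDC against 5.37 CPM in other CKO cells, and at 113 CPM in WT cDC against 2.81 CPM in other WT cells. Itgax, which encodes CD11c, was at 89.7 CPM against 16.0 CPM in CKO and at 165 CPM against 5.41 CPM in WT. Dpp4 and Id2, also cDC markers, were 4.61-fold and 2.42-fold higher in CKO cDC than in the other CKO cells. Bcl11a was lower, at 12.8 CPM in CKO cDC against 24.9 CPM elsewhere, and Spib was at 2.74 CPM against 32.8 CPM. The cDC2 markers Sirpa, Irf4 and Itgam were lower too, at 0.781, 0.203 and 0.599 times their CPM in the other CKO cells. In WT the same ratios were 6.90, 0.630 and 6.66, on 7, 4 and 10 UMIs in the cDC. In CKO the check therefore rests on general cDC and cDC1 markers, and the cDC2 markers did not set the cDC apart. Markers of other lineages were low. Pax5, the B cell transcription factor, had no UMI in the cDC of either library. Cd3d and Cd3g of the T cell receptor complex had 7 and 5 UMIs in all CKO cDC and 1 and 0 UMIs in all WT cDC.

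The deciding transcripts lie on different chromosomes (GRCm38, GENCODE vM21). Xcr1 (ENSMUSG00000060509), the receptor for the chemokine XCL1, spans chr9:123852315-123862029 on the minus strand, and Clec9a (ENSMUSG00000046080), a receptor for actin exposed on dead cells, spans chr6:129408862-129424763 on the plus strand. Flt3 (ENSMUSG00000042817), the growth factor receptor of the lineage, spans chr5:147330741-147400489 on the minus strand, and Cd209a (ENSMUSG00000031494), a C-type lectin, spans chr8:3743397-3748984 on the minus strand. The reads count toward whole genes through their 3′ ends, so no exon is resolved.

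The 2 sides also differed in transcripts that the split did not use. Of 55 cDC1-like cells in CKO, 31 had both Xcr1 and Clec9a UMIs, 12 had Xcr1 alone and 12 had Clec9a alone. The cDC1 identity genes left after those of the rule, summed in each cell, ran from 17.3 through a median of 63.1 to 114 UMIs per 10000 in the cDC1-like cells, against 0, 15.9 and 36.2 UMIs per 10000 in the other cDC. Of the 55 cDC1-like cells, 53 lay above every one of the 35 other cells. The cDC2 identity genes ran from 17.2 through 62.8 to 190 UMIs per 10000 in the cDC1-like cells and from 54.1 through 142 to 328 in the other cDC, with wide overlap. In WT, 3 of the 4 cDC1-like cells, at 47.0, 57.3 and 81.6 UMIs per 10000 of cDC1 identity genes, sat within the CKO cDC1-like range. The remaining cell had 1 Clec9a UMI, 5 Clec10a UMIs, no Irf8 and 13.6 UMIs per 10000, and lay within the range of the other cDC of CKO.

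**Figure D1:**
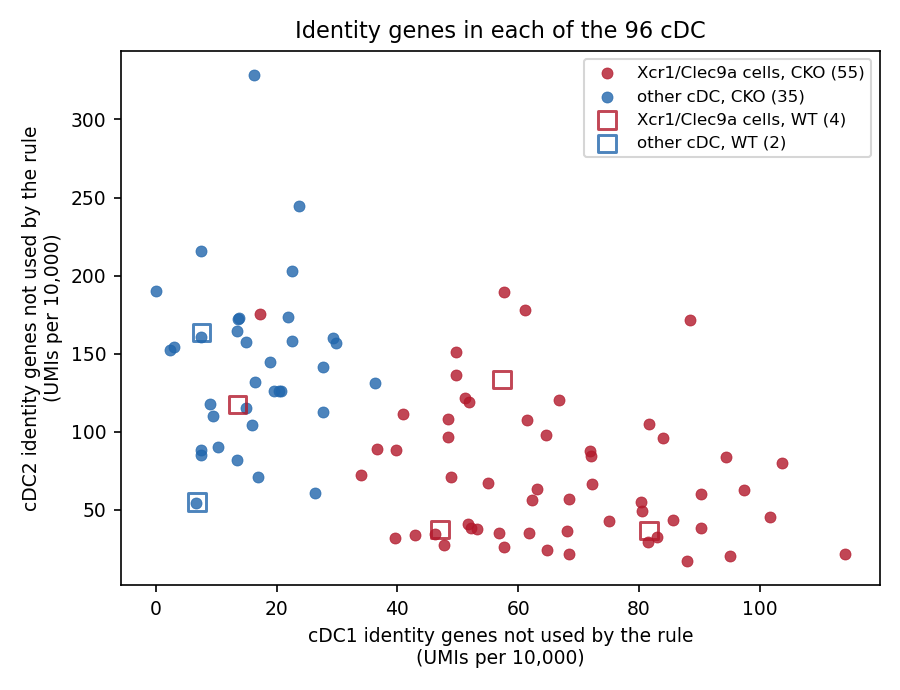
Each point is 1 cDC, with the summed cDC1 identity genes on the x axis and the summed cDC2 identity genes on the y axis, both in UMIs per 10,000 and without the genes used to choose the cells. Red points are cells with Xcr1 or Clec9a, blue points the other cDC, filled circles the CKO library (55 and 35 cells) and open squares the WT library (4 and 2 cells). In CKO 53 red points lie to the right of every blue point, and 1 red square of the WT library lies among the blue ones.

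Across 1208 genes read in CKO, 60 were at least 2-fold higher in cDC1-like cells than in the other cDC (4.97%) and 131 at least 2-fold lower (10.8%). A gene was read where the mean of the 2 sides was at least 100 CPM, without the genes of the choosing conditions, mitochondrial, ribosomal, immunoglobulin, T cell receptor and sex-linked genes and unnamed gene models. The median log2 ratio over all genes read was -0.01. Cells of 1 library are not replicates, so these counts carry no test. The WT library gave a second reading: of the 60 higher genes, 54 had a usable ratio there and 50 were higher again, while of the 131 lower genes, 113 had one and 63 were lower again. Over all genes the sign matched for 665 of 1088 (61.1%), against 92.6% of the higher and 55.8% of the lower genes. The other cDC of WT are 2 cells with 16624 UMIs. A gene with no UMI in them had a usable ratio only where it read higher in the cDC1-like cells. A gene with none in the WT cDC1-like cells had one only where it read lower. The 61.1% takes both directions together, so it is no base rate for either.

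Of 24 cDC1 identity genes, 10 were read, and 8 were at least 2-fold higher in the cDC1-like cells and none lower, with a median log2 ratio of 2.11. Naaa, which encodes a lysosomal amidase, had 850 CPM in the cDC1-like cells (interval 785 to 919) against 62.2 CPM in the other cDC (39.0 to 94.1). It had a UMI in 54 of 55 cells against 14 of 35, and its median was 7.81 against 0 UMIs per 10000. In WT all 39 Naaa UMIs lay in the cDC1-like cells, which held 80421 of the 97045 WT cDC UMIs. Ppt1, a lysosomal thioesterase, had 697 CPM against 67.8 CPM in CKO, and in WT all of its 73 UMIs lay in the cDC1-like cells. Rab7b, a GTPase of late endosomal transport, had 372 CPM against 22.6 CPM (log2 ratio 4.04, interval 3.04 to 5.27), while in WT 11 UMIs stood against 2. Naaa, Ppt1 and Rab7b are named genes, which had to have the same sign in WT, so their WT direction is no independent reading. Wdfy4, which is required for cross-presentation by cDC1 in mice, had 482 CPM against 107 CPM and a UMI in all 55 cDC1-like cells against 22 of 35 others. Cd24a, a surface glycoprotein used to sort cDC1, had 298 CPM against 39.6 CPM.

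The lineage regulators and surface markers sat on the same side. Irf8, the transcription factor that cDC1 require, had 811 CPM in the cDC1-like cells against 195 CPM in the other cDC (log2 ratio 2.06, interval 1.69 to 2.44), and a UMI in 54 of 55 cells against 17 of 35. Batf3 had 112 CPM against 16.9 CPM, and Cadm1, an adhesion molecule of cDC1, had 97 UMIs in the cDC1-like cells and none in the 35 other cells, for which a floor of 3 UMIs corresponds to 8.48 CPM. Set against that floor, the ratio was 15.5-fold, which is not the lower limit of an interval. Itgae, which encodes CD103, had 226 CPM against 62.2 CPM, and Tlr3, the sensor of double-stranded RNA, had 20 UMIs against 1 UMI (log2 ratio 3.26, interval 0.62 to 8.63). In WT, Batf3, Cadm1, Itgae and Tlr3 had 11, 11, 18 and 3 UMIs in the cDC1-like cells and none in the 2 others. The WT cDC1-like cells held 80421 UMIs in all against 16624 in the 2 others. Counts as small as the 3 and 0 of Tlr3 therefore do not tell the sides apart.

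The largest ratio among the named genes belonged to Ncoa7, an oxidation resistance gene with an interferon-induced form, at 452 CPM in the cDC1-like cells against 25.4 CPM in the other cDC (log2 ratio 4.15, interval 3.21 to 5.29). Psap, which encodes the precursor of the lysosomal saposins, had 3325 CPM against 658 CPM, and Cst3 had 20493 CPM against 4289 CPM. Trim35, Camk1d and Rgs10, a ubiquitin ligase, a kinase and a regulator of G protein signalling, were between 4.19-fold and 5.12-fold higher. For all 12 named higher genes the ratio stayed above 2-fold under each of 14 other settings, and Ncoa7 ranged from 4.02 to 6.04 on the log2 scale. Not all of the 14 could move a ratio. Scrublet marked no cDC, and no cDC exceeded 7.47% mitochondrial UMIs where the limit was 10%. The floors of 50 and 200 CPM only choose which genes are read.

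**Figure D2:**
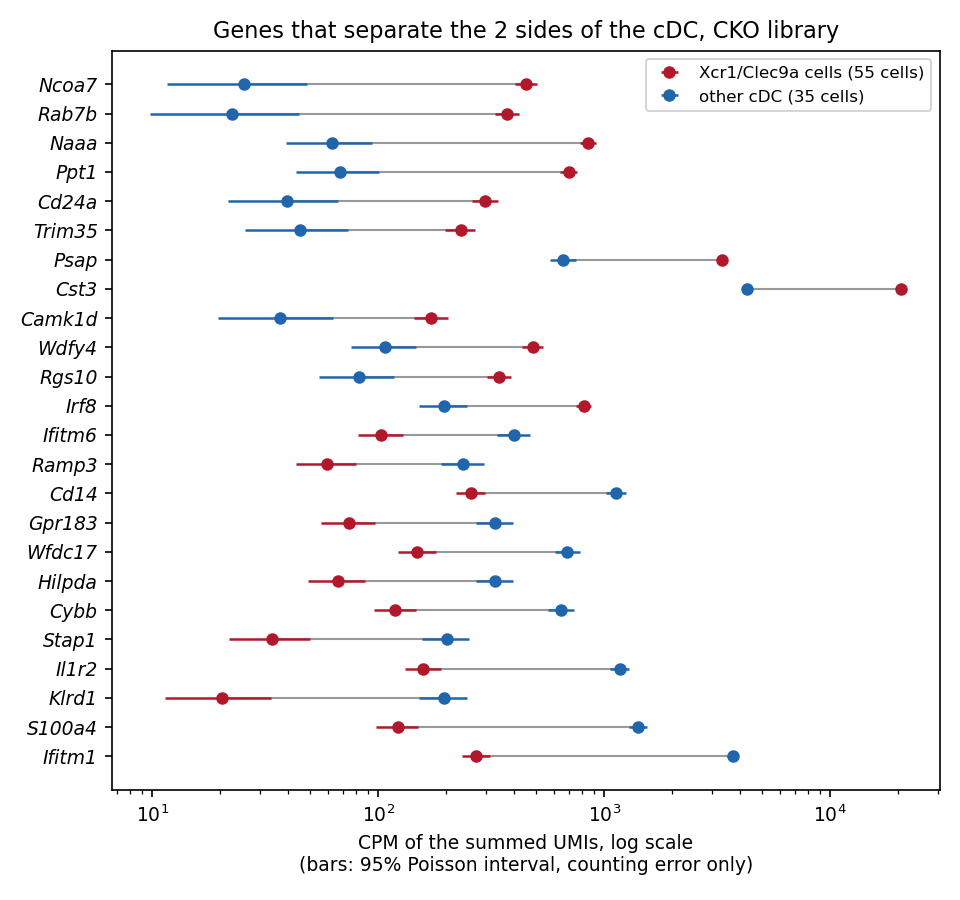
CPM of the summed UMIs on a log axis for the 24 genes furthest apart, with the 55 cDC1-like cells of the CKO library in red and its 35 other cDC in blue, and bars giving the 95% Poisson interval of each sum. The upper 12 genes are higher in the cDC1-like cells, from Ncoa7 (452 against 25.4 CPM) to Irf8 (811 against 195 CPM), and the lower 12 are higher in the other cDC.

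The other cDC, chosen by Cd209a, Clec10a or Mgl2, carried more of the cDC2 identity genes and also more monocyte transcripts. Sirpa, an inhibitory receptor of cDC2, had 10.8 CPM in the cDC1-like cells against 110 CPM in the other cDC, and Itgam, which encodes CD11b, had 12.2 CPM against 147 CPM. Irf4, a cDC2 transcription factor, had 0 UMIs against 11 in CKO, while in WT its 4 UMIs all lay in the cDC1-like cells. Of the 28 cDC2 identity genes 7 were read, of which 4 were at least 2-fold lower and 1, Rbpj, was higher in the cDC1-like cells (292 CPM against 136 CPM), with a median of -1.85. Zeb2, a transcription factor of myeloid cells, had 85.3 CPM in the cDC1-like cells against 599 CPM in the others, but 423 against 421 CPM in WT. S100a4 had 122 CPM against 1413 CPM. In WT, S100a4 had 12, 0, 37 and 0 UMIs in the 4 cDC1-like cells and 0 and 13 UMIs in the 2 others. Those WT cells held 80421 and 16624 UMIs in all on the 2 sides. Fcer1g, the common gamma chain of Fc receptors, had 396 CPM against 1432 CPM in CKO. Of 9 monocyte marker genes read, 6 were at least 2-fold lower in the cDC1-like cells and 1 was higher. The whole list of 13 monocyte markers summed to 4188 CPM against 8304 CPM, from 2.25 to 242 UMIs per 10000 in single cDC1-like cells and from 14.1 to 231 in single other cells, and none of the 13 was at 0 on either side. Their part in the difference was not tested. With monocyte markers higher on this side, the cells are called other cDC and given no lineage name.

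Those leading genes were as follows. Ifitm1, an interferon-induced membrane protein, had 271 CPM in the cDC1-like cells (interval 234 to 311) against 3698 CPM in the other cDC (3501 to 3904), with a median of 0 against 29.9 UMIs per 10000. In WT the same gene stood at 659 against 662 CPM, so the difference was not seen there. Over all other CKO cells Ifitm1 was at 734 CPM, and in CKO B cells at 104 CPM. Il1r2, the decoy receptor of interleukin 1, had 158 CPM against 1175 CPM (log2 ratio -2.89, interval -3.20 to -2.59) and a UMI in 36 of 55 cells against 32 of 35. In WT the same gene had 7 UMIs in the cDC1-like cells and 11 in the 2 others, and the 11 lay in 1 cell. Cd14, the lipopolysaccharide co-receptor, had 257 CPM against 1127 CPM. Cybb, the catalytic subunit of the phagocyte NADPH oxidase, had 119 CPM against 644 CPM and a UMI in 14 of 55 cells against all 35. Klrd1, which encodes the NK receptor subunit CD94, had 15 UMIs against 69 and was found in 25 of the 35 other cells. Wfdc17, Hilpda, Ramp3, Ifitm6 and Stap1 were between 3.87-fold and 5.93-fold lower in the cDC1-like cells.

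Of the 35 other cells in CKO, 2 had at least 10 UMIs of the neutrophil transcripts S100a8 and S100a9 together. Fewer UMIs were more widespread: S100a8 had a UMI in 28 and S100a9 in 32 of the 90 CKO cDC. S100a8 and S100a9, the calprotectin subunits, summed to 465 UMIs in CKO cDC, of which 391 lay in these 2 cells. The list of 12 neutrophil markers summed to 249 CPM in the cDC1-like cells against 2619 CPM in the others, with 6 markers and 1 marker at 0. Il1r2, found in most of the other cells, is on this list and gave 158 and 1175 CPM of the 2 sums. Leaving out every cell with at least 10 UMIs of S100a8 and S100a9, a choice made after seeing the data, gave 60 higher and 122 lower genes, and Ifitm1 and Il1r2 stayed at -3.83 and -2.87 on the log2 scale.

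**Figure D3:**
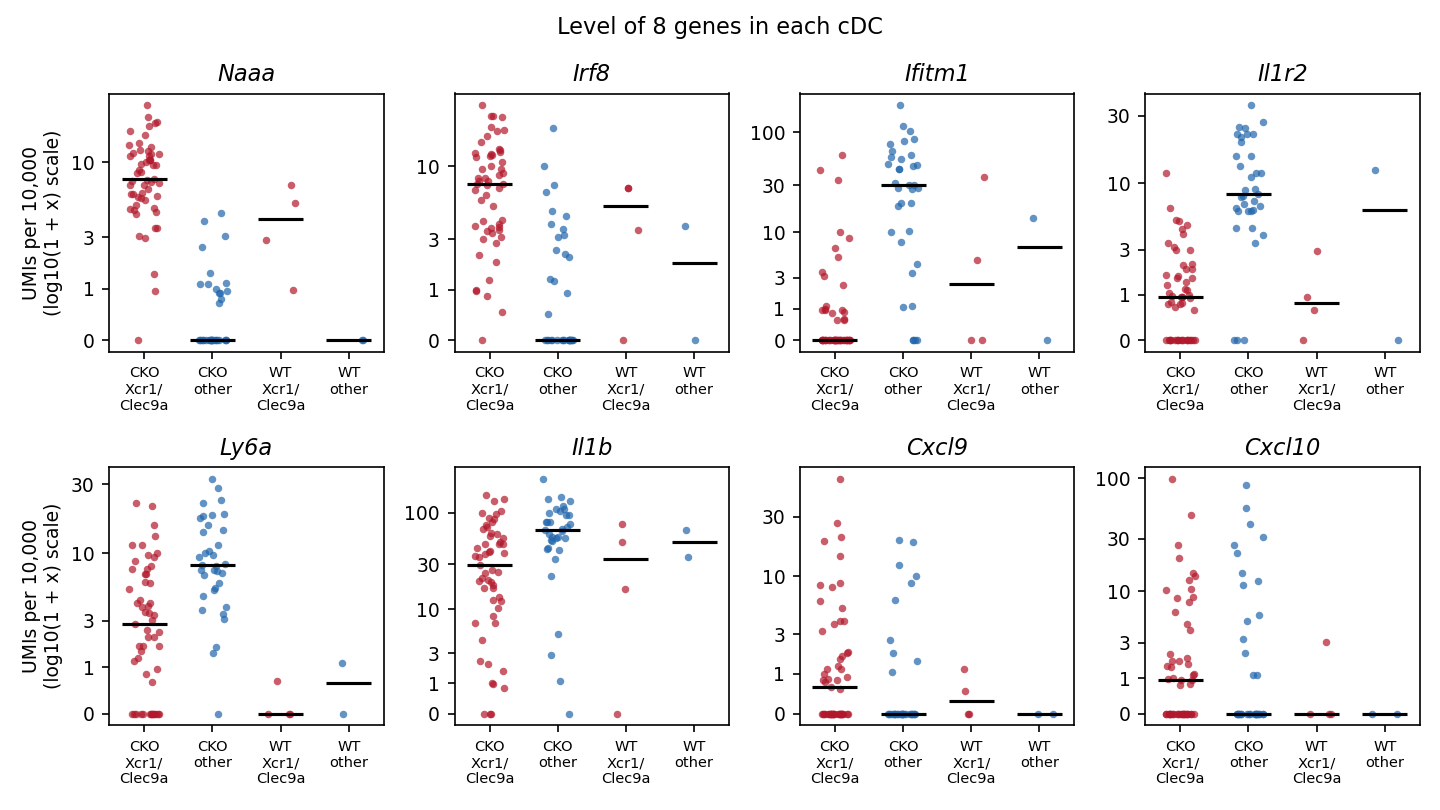
UMIs per 10,000 in each cDC, on a log10(1 + x) axis, for 8 genes, with cDC1-like cells in red, other cDC in blue, the CKO library in the left pair of columns and the WT library in the right pair, and black bars at medians. Naaa and Irf8 are high in red points, Ifitm1 and Il1r2 in blue ones. Ly6a reaches 32.5 in CKO cells and 1.15 in WT cells, while Cxcl9 reaches 59.1 in CKO cells and 1.19 in WT cells.

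Most antigen presentation genes read were within 2-fold between the sides. The class II list was 51191 CPM in the cDC1-like cells and 32776 CPM in the other cDC when summed, a sum that includes Cst3, but of its 13 genes read 5 were at least 2-fold lower and 1, Cst3 itself, higher, with a median log2 ratio of -0.67. The lower ones were H2-Oa, a class II regulator (60.9 CPM against 170 CPM), the proteases Lgmn, Ctss and Ctsh and the thiol reductase Ifi30, which open endosomal antigen. Ctss had 553 CPM against 1229 CPM. H2-Aa, which helped choose the cells, had 6499 CPM against 5696 CPM. Of 18 class I and cross-presentation genes read, only Wdfy4 was past 2-fold, and the median was 0.19. Tap2, Psmb9, Psmb8 and Psme1, of the peptide transporter and the immunoproteasome, had log2 ratios between 0.72 and 0.87.

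Some receptor, maturation and chemokine genes were lower in the cDC1-like cells of CKO, where 10.8% of all genes read were. All 6 chemokine and lipid mediator receptors read were at least 2-fold lower in the cDC1-like cells, with a median of -2.04. Ccr1 had 42.0 CPM against 203 CPM in CKO (124 against 120 CPM in WT), and Gpr183, the oxysterol receptor that positions dendritic cells, had 74.4 CPM against 328 CPM. Of 19 maturation and migration genes read, 7 were lower, none higher and 12 neither, with a median of -0.83. Ccr7, the receptor that guides cDC to lymph nodes, had 291 CPM in the cDC1-like cells against 605 CPM in the others, and Tnfaip3, an NF-kappaB inhibitor, 189 CPM against 511 CPM. In WT, Ccr7 went the other way, with 584 CPM in the cDC1-like cells against 120 CPM in the others, on 47 and 2 UMIs. Of 10 chemokines read 4 were lower, none higher and 6 neither. The lower ones were Cxcl1, Ccl5, Ccl4 and Cxcl2, and the Cxcl1 ratio rests on 1 cell of the other cDC that holds 87.9% of the 99 UMIs there.

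Il1b and chemokine transcripts differed strongly from cell to cell within the CKO cDC. Il1b, the inflammasome cytokine, had a UMI in 86 of 90 cells and ran up to 152 UMIs per 10000 in the cDC1-like cells and 221 in the others. It summed to 4066 CPM against 7885 CPM. B cells, read for free RNA, had an Il1b UMI in 26.5% of CKO and 14.0% of WT cells. After thinning, 90% of the CKO cDC and 17.3% of the CKO B cells had one. Cxcl9 and Cxcl10, ligands of CXCR3, a chemokine receptor of activated T cells, were found in 39 and 45 of the 90 CKO cells, 27 of which had both, 19 cDC1-like and 8 others. The 10 highest cells held 72.9% of the Cxcl9 UMIs and 69.8% of the Cxcl10 UMIs. For comparison, the 10 highest cells held 32.9% of Naaa UMIs. After thinning, 21.1% of CKO cDC had a Cxcl9 UMI against 0.946% of CKO B cells, and 32.2% had a Cxcl10 UMI against 5.53%. Ccl17 and Ccl22, ligands of CCR4, were found in 19 and 26 cells and together in 15, and the 10 highest cells held 93.9 and 85.1% of their UMIs. Il12b, a subunit of interleukin 12, had 42 UMIs, all in 10 cells.

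Between the libraries, 53 of 1196 genes were at least 2-fold higher in CKO cDC than in WT cDC (4.43%) and 68 at least 2-fold lower (5.69%), and the median log2 ratio was 0.01. In 60 of the 68 lower genes, 1 WT cell held more than 1 in 3 of the WT UMIs, which with 6 cells can be 1 deep cell. Of the 68, 21 had a ratio at least 2-fold lower when the highest cell of each library was left out for each gene, with no new floor on CPM. Leaving out the highest of 6 WT cells lowers the WT sums, so the same step says nothing on the 53 higher genes. One WT cDC1-like cell stood apart with 32293 of the 97045 WT UMIs, all 246 WT UMIs of S100a8 and S100a9, 117 of 150 of Lyz2 and all 60 of Ccl3. Without cells of at least 10 such UMIs, 88 CKO and 5 WT cells remained, and 124 genes were higher and 81 lower of 1141 read.

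Ly6a, which encodes the interferon-induced surface protein Sca-1 (ENSMUSG00000075602, chr15:74994877-74998031, minus strand), had the largest ratio of the named genes. It had 645 CPM in CKO cDC (interval 598 to 694) against 30.9 CPM in WT cDC (6.38 to 90.3), a 20.9-fold ratio. In CKO 75 of 90 cells had a UMI, with a median of 5.05 and a highest value of 32.5 UMIs per 10000, while the 6 WT cells had 1, 0, 0, 2, 0 and 0 UMIs and at most 1.15 per 10000. The 6 depths, in the same order, were 8732, 10304, 16782, 32293, 7892 and 21042 UMIs. Both sides of the CKO cDC carried it, the cDC1-like cells at 434 CPM and the others at 1085 CPM. Over all other cells Ly6a was at 763 CPM in CKO against 918 CPM in WT, and in B cells at 972 against 1073 CPM. In C1q macrophages it was at 812 CPM in CKO against 220 CPM in WT, where WT had 2 such cells and 5 UMIs of Ly6a. The log2 ratio in cDC stayed between 4.16 and 5.44 over the settings tried.

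Cxcl9 had 301 CPM in CKO cDC against 30.9 CPM in WT cDC (log2 ratio 3.28, interval 1.72 to 5.57), and Cxcl10 had 643 CPM against 103 CPM (2.64, 1.75 to 3.71). The 10 WT UMIs of Cxcl10 lay in the WT cell with S100a8 and S100a9, and the 3 of Cxcl9 in 2 other cells. Cxcl9 was also higher in the rest of the CKO library, at 127 CPM against 26.8 CPM in WT over all other cells, and Cxcl10 was at 518 CPM against 187 CPM. Cxcl10 in B cells was at 92.3 CPM in CKO against 78.8 CPM in WT, and in C1q macrophages it was lower in CKO, at 762 CPM against 2153 CPM on 49 UMIs in 2 WT cells. Gbp2, an interferon-induced GTPase, had 203 CPM in CKO cDC against 61.8 CPM in WT cDC, and 416 CPM against 122 CPM in all other cells. Its log2 ratio in cDC was 1.72 (0.57 to 3.18) and dropped to 0.44 where 2 UMIs of Flt3 or Zbtb46 were required. In the CKO library Gbp2 belonged mainly to the other cDC, at 73.1 CPM in cDC1-like cells against 475 CPM. Ccl22 and Gpr183 were 3.27-fold and 3.04-fold higher in CKO cDC, on 6 and 5 WT UMIs, and Gpr183 was short of 2-fold (log2 ratio 0.72) under the same stricter condition. Over the 10 chemokines read, 3 were at least 2-fold higher in CKO cDC and 4 lower (Ccl17, Ccl3, Ccl6 and Ccl9), with a median of -0.78. Of all genes read, 4.43% were past 2-fold upward and 5.69% downward. Once cells with at least 10 UMIs of S100a8 and S100a9 were dropped, 7 chemokines were read. Of these, 4 were past 2-fold toward CKO and 1 toward WT, where 10.9% and 7.10% of all genes were. The chemokine median then became 1.15. Across the settings tried it ran from -1.92 to 2.80, so the list shows no fixed direction. Ccl17 had 150 CPM in CKO cDC against 330 CPM in WT cDC, and its 32 WT UMIs lay in 1 cell.

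The remaining named higher genes belonged to several functions. Tubb5, a tubulin that is abundant in dividing cells, had 208 CPM in CKO cDC against 20.6 CPM in WT cDC, on 2 WT UMIs. Hif1a, the hypoxia-inducible factor, had 211 CPM against 61.8 CPM, and Pfkp, a phosphofructokinase of glycolysis, had 348 CPM against 103 CPM (log2 ratio 1.75, interval 0.86 to 2.83). Klrk1, which encodes the receptor NKG2D, had 188 CPM against 61.8 CPM. Ubald2 and the mitochondrial import protein Timm13 were 4.17-fold and 3.73-fold higher. Of the 12 named lower genes 8 were past 2-fold, and each was spread so that no WT cell held more than 1 in 3 of its UMIs. Fmnl1, a formin, had 59.5 CPM in CKO cDC against 196 CPM in WT cDC, and Klf2, a transcription factor of quiescence, had 105 CPM against 278 CPM. Klf2 was lower in the CKO library outside the cDC as well, with 170 CPM against 344 CPM. Stap1, Wipf1, Rab6a, Antxr2, Kctd12 and St3gal1 were between 2.02-fold and 2.58-fold lower in CKO cDC. Of these, Wipf1 alone stayed past 2-fold under every setting tried, as did Fmnl1 and Klf2, while Stap1 was at -0.43 on the log2 scale where 2 UMIs of Flt3 or Zbtb46 were required.

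**Figure D4:**
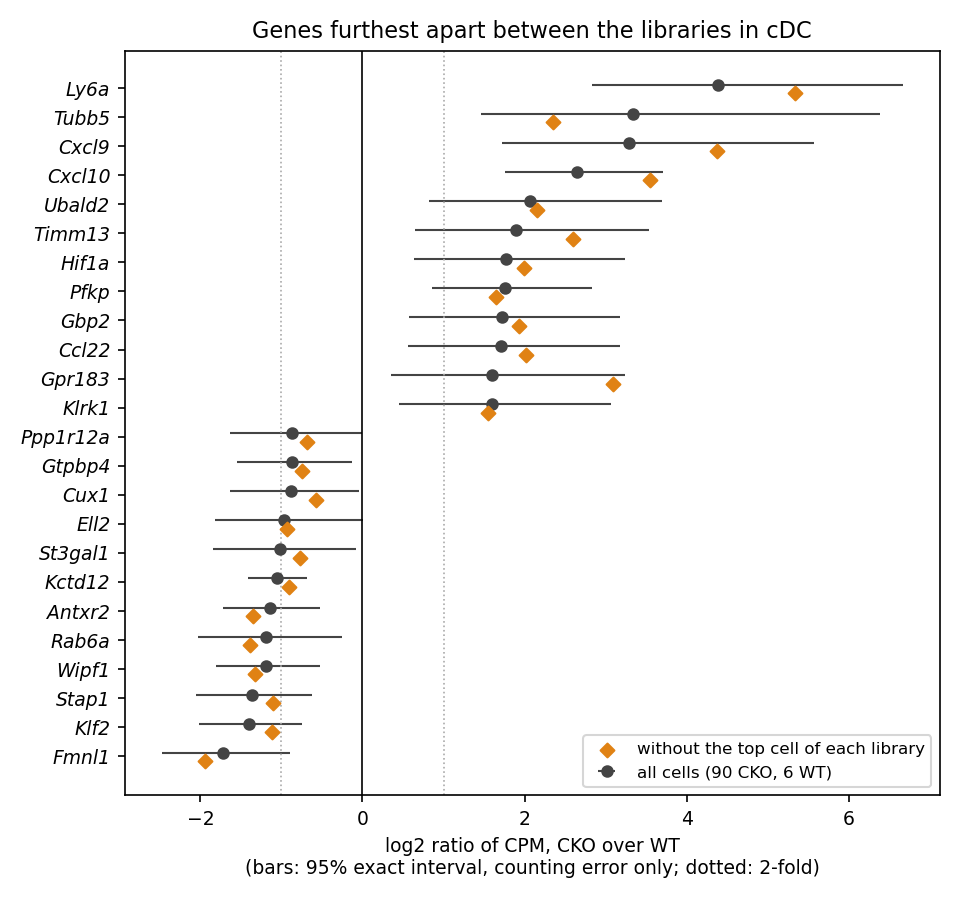
Log2 ratio of CPM, CKO cDC over WT cDC, for the 12 highest and 12 lowest named genes, with grey circles for all 90 CKO and 6 WT cells, bars for the exact 95% interval and orange diamonds for the ratio without the highest cell of each library. Ly6a is at 4.38 and 5.33, Cxcl9 at 3.28 and 4.37, and Ell2, Cux1, Gtpbp4 and Ppp1r12a lie short of 2-fold lower.

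The interferon lists moved when the cells with at least 10 UMIs of S100a8 and S100a9, 2 in CKO and 1 in WT, were left out. Of 13 type I interferon-stimulated genes read, 2, Irf7 and Parp14, were at least 2-fold higher in CKO and none lower. The median was 0.69 beside 0.01 over all genes, of which 4.43% were higher. Without those cells, 10 of 12 were higher and the median was 1.45, where 10.9% of all genes were higher and the median over all was 0.12. Irf7, the regulator of the interferon response, had 245 CPM in CKO cDC against 92.7 CPM in WT cDC, and 247 against 30.9 CPM without those cells. Cell by cell, the 36 genes of the list summed to 6.61, 59.5 and 295 UMIs per 10000 as lowest, median and highest in the CKO cDC. The 6 WT cells had 52.7, 22.3, 16.7, 108, 45.6 and 14.7, with 108 in the cell with S100a8 and S100a9. The groups overlapped: 50 of 90 CKO cells lay above 52.7, the highest of the 5 WT cells left when the one at 108 is set aside. In B cells the median of the same sum was 58.6 in CKO and 53.2 in WT. The list of interferon-gamma-induced genes had 3 of 9 higher (Cxcl9, Cxcl10 and Gbp2), none lower and a median of -0.10, and 4 of 7 higher with a median of 1.12 without those cells. In both lists the WT cell left out had the highest sum of the 6 WT cells. Leaving it out lowers the WT level, so this step cannot decide whether the lists differ between the libraries.

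Cxcl10 and Gbp2 are shown with the stretch of their promoters that holds a 10-base core of interferon-stimulated response elements, GAAA followed by any 2 bases and GAAA again, searched on both strands (TTTC, any 2 bases, TTTC on the other) in the 250 bases before the start of RefSeq genes (GRCm38.p6). Capitals mark the core, read 5′ to 3′ on the strand of the gene. The Cxcl10 window is chr5:92348890-92349139 on the minus strand, with the core 213 to 204 bases before the start. The Gbp2 window is chr3:142620594-142620623 on the plus strand, with the core on the opposite strand 59 to 50 bases before the RefSeq start. The GENCODE model of Gbp2 starts at base 142620602, so the core lies just inside that model. They were picked after their values were seen.
Cxcl10: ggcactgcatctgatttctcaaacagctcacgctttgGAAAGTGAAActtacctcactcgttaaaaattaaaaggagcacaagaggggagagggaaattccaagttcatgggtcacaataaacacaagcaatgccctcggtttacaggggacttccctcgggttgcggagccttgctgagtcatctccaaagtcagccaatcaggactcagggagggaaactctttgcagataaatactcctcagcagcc
Gbp2: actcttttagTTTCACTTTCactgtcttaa
The core was in 978 of 32851 promoters of that length (2.98%) and in 15 of 34 promoters of the type I list (44.1%). Of the 12 genes named as highest in CKO, 11 had a promoter entry, and Cxcl10 and Gbp2 were the 2 that held the core. A match is a string of letters and no evidence of binding.

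None of 12 class II genes read was past 2-fold in either direction, with a median of -0.08. Of 12 cDC1 identity genes only Cd36, a scavenger receptor, was, at 29.3 CPM in CKO against 185 CPM in WT. Cd36 did not meet the rule for named genes. Of 10 general cDC genes read, 2 were at least 2-fold lower in CKO and none higher, with a median of -0.31. Leaving out the cells with at least 10 UMIs of S100a8 and S100a9 gave 4 of 11 lower and 1 higher. The shares of all genes were then 7.10% lower and 10.9% higher. Of 22 immediate early genes read 5 were at least 2-fold lower in CKO and none higher, with a median of -0.19, where 5.69% of all genes were lower. Without the cells with at least 10 UMIs of S100a8 and S100a9, 3 of 20 were lower and 1 higher, with a median of -0.05. Of all genes, 7.10% were then lower. Fos had 156 CPM in CKO cDC against 680 CPM in WT cDC, but 54 of its 66 WT UMIs lay in the WT cell with S100a8 and S100a9. Jun had 337 CPM against 773 CPM and kept a log2 ratio of -1.13 without the highest cells. In all other cells Fos was at 272 CPM in CKO against 509 CPM in WT. Of 4 cell cycle genes read 2, Tubb5 and Tuba1b, were higher in CKO, where 4.43% of all genes were. Rpa1 had 13 UMIs in CKO cDC (11.9 CPM) and 0 of 97045 in WT cDC, where the floor of 3 UMIs corresponds to 30.9 CPM. A difference was therefore not detectable at this depth. Ripk3 and Mlkl, the necroptosis kinase and pore protein, had 17 and 6 UMIs in CKO cDC and 1 and 2 UMIs in WT cDC.

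Mature dendritic cells (Fscn1 and Ccr7 UMIs) and macrophages (at least 5 C1q UMIs) were the populations chosen for comparison, with 38 and 95 cells in CKO and 0 and 2 cells in WT, so both comparisons were made in CKO. Against the mature cells, 155 of 1229 genes read were at least 2-fold higher in cDC (12.6%) and 191 lower (15.5%), with a median of 0.07. Naaa (595 CPM in cDC against 6.69 CPM), Rab7b, Tgfbi, Ppt1 and the creatine kinase Ckb led the higher genes, and Lyz2, lysozyme, had 904 CPM against 16.7 CPM. Of 25 maturation and migration genes read, 13 were lower in cDC and 1 higher. Ccr7, which also chose the mature cells, had 393 CPM in cDC against 3382 CPM, and Ccl5, the chemokine RANTES, had 141 CPM against 4024 CPM. Cacnb3, a calcium channel subunit of mature dendritic cells, had 4.57 CPM against 388 CPM, and the immune checkpoint ligand Cd200 had 2.74 CPM against 395 CPM. Irf8 was lower in cDC too, at 611 CPM against 1244 CPM, and Cst3 was close, at 15246 CPM against 12652 CPM. Plasma cell markers summed to 593 CPM in cDC and to 5239 CPM in the mature cells, and neutrophil markers to 1016 against 5098 CPM. Their part was not tested. Mgp and Sparc, genes of stromal cells, had 2 and 0 UMIs in cDC against 111 and 73.

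Against the C1q macrophages, 99 of 1279 genes were at least 2-fold higher in cDC (7.74%) and 226 lower (17.7%), with a median of 0.01. Cst3 had 15246 CPM in cDC against 1480 CPM, Wdfy4 had 360 CPM against 26.1 CPM, Ncoa7 had 314 CPM against 33.4 CPM, Naaa had 595 CPM against 90.8 CPM, and Ckb and the cyclin Ccnd1 followed. Lower genes included Apoe, the lipid carrier of macrophages (54.0 CPM in cDC against 3992 CPM), and Il10, the anti-inflammatory cytokine (8.23 CPM against 230 CPM). Retnlg, S100a9, S100a8 and G0s2, which neutrophils express, were also lower in cDC, and neutrophil markers summed to 1016 CPM in cDC against 17960 CPM in the macrophages. Of 9 cytokines read 6 were lower in cDC and none higher, and of 11 chemokines 7 were lower and 1 higher, Ccl22, with 202 CPM against 38.6 CPM.

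**Figure D5:**
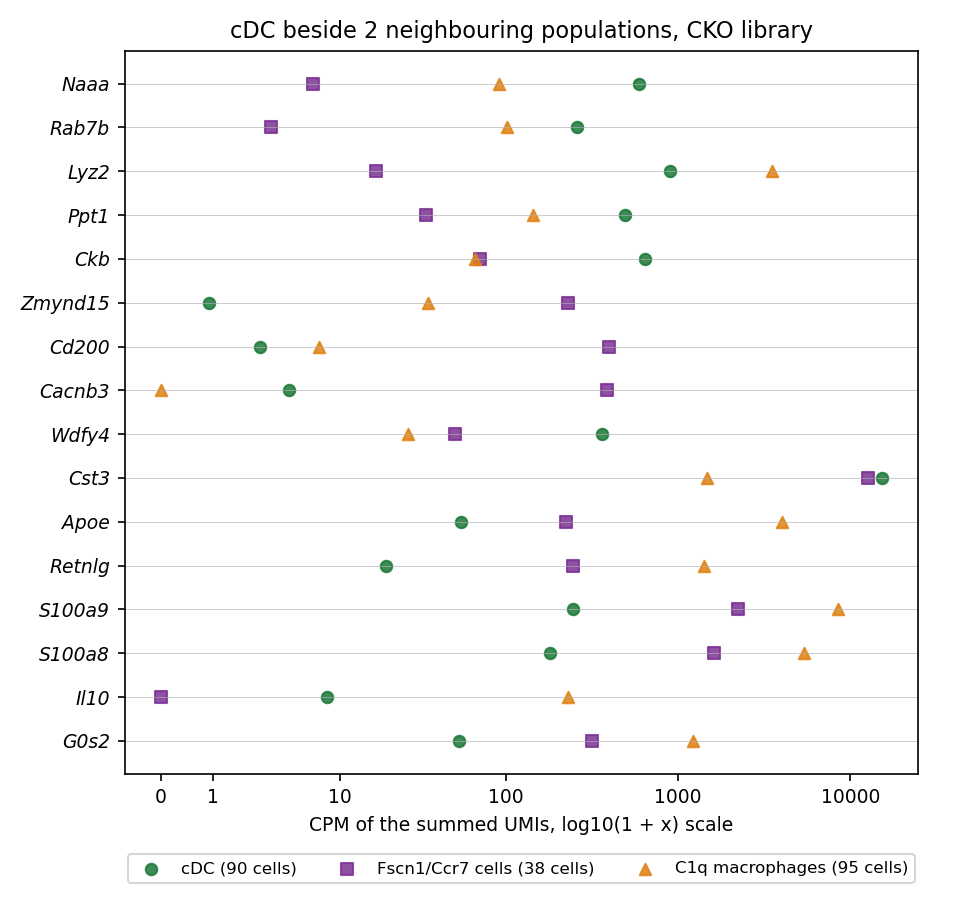
CPM of the summed UMIs on a log10(1 + x) axis in the CKO library for 16 genes, with green circles for the 90 cDC, purple squares for the 38 cells with Fscn1 and Ccr7, and orange triangles for the 95 C1q macrophages. Naaa and Wdfy4 are highest in cDC, Cacnb3 and Cd200 in the cells with Fscn1 and Ccr7, and Apoe and Il10 in macrophages, while Cst3 is near 15246 CPM in cDC and 12652 CPM in the cells with Fscn1 and Ccr7.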

How the data were processed

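Libraries were made with the 10x 3′ v3.1 chemistry, per the labels' protocols, from 1 CKO and 1 WT sample. The deposited matrices hold whole-number UMI counts per gene and barcode, not normalized, per the file headers, which give Cell Ranger 6.0.1. Per the submitters' processing notes, the tools were Seurat 3.2.3 and Cell Ranger 5.0.0, with build mm10. Cells with at least 200 genes and at most 20% mitochondrial UMIs were kept. Scrublet in scanpy 1.11.5, run as an alternative, marked 213 CKO cells (1.91%), 1 WT cell (0.0342%) and 0 cDC, so no cell was removed as a doublet. The marked share was far under the 8.92 and 2.34% expected from cell numbers.

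UMIs were summed per library and cell group and scaled to CPM of the sum (Python 3.11.15, numpy 2.4.6, scipy 1.17.1). Log2 ratios have exact conditional binomial intervals, CPM exact Poisson intervals and shares Clopper-Pearson intervals. A sum of 0 was set to 3 counts over the group. With 1 library per label no test was made, and called means at least 2-fold. The ratio calculation was tested on simulated data.

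Named genes were the 12 highest and 12 lowest ratios. For CKO over WT they needed a UMI in at least 5 cells of the higher library, no cell with more than 1 in 3 of the UMIs there, and the same sign without the highest cells. For cDC1-like over other cDC they needed the same sign in WT. For the neighbouring populations 6 and 6 were taken, with the same sign in WT where WT had such cells, and up to 4 members of each described list by ratio. Members and the 33 gene lists were chosen with earlier results of these data known; 587 of 594 list symbols matched a feature. Settings tried are given in the closing section.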

Additional observations from a re-analysis of the deposited data

How the results depend on the processing

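No paired analysis was possible because each label has 1 library. The cDC share in CKO was 0.448% where 2 UMIs of Flt3 or Zbtb46 were required and 0.574% with a lectin sum of 2. The first setting gave a cDC1-like share of 72.0% in CKO and 100% in WT, and thinning gave 36.7 and 16.7%. Genes higher in CKO cDC numbered 116 without cells above the 95th percentile of UMIs and 80 with TMM scaling. They numbered 97 with both sides weighted alike, 130 without the top cell of each gene and 169 at 1.5-fold. Floors of 50 and 200 CPM gave 146 and 15. Leaving out cells with at least 10 UMIs of S100a8 and S100a9, a setting chosen after seeing the data, gave 124. Genes lower in CKO numbered 133 with 2 UMIs of Flt3 or Zbtb46, 16 without the top cells (with the 100 CPM floor applied again after leaving them out), 200 and 32 at the 2 floors and 184 at 1.5-fold. Between the sides, 92 were higher with 2 UMIs of Flt3 or Zbtb46, 151 and 29 at the floors and 174 at 1.5-fold, while 282 and 66 were lower at the floors and 252 at 1.5-fold. The causes were not tested. TMM moved CKO over WT by 0.17 and cDC1-like over other cDC by 0.11 on the log2 scale. No named gene changed direction under any setting run, but of the 12 named lower in CKO only 5 were past 2-fold with TMM scaling. No cDC was marked by Scrublet or exceeded 10% mitochondrial UMIs, and the floors only choose the genes read, so these settings could not move a ratio. The 6 WT cells limit every comparison of the labels, and 10.3 CPM is the least a WT sum can show.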

Other observations

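Mki67, a proliferation antigen, had a UMI in 42 of 90 CKO cDC and Top2a, a topoisomerase of dividing cells, in 11, with both in 7. Mki67 summed to 89.3 CPM in the cDC1-like cells, where 18 of 55 had a UMI, and to 181 CPM in the other cDC, where 24 of 35 did. After thinning, 18.9% of CKO cDC had a UMI of either gene, against 5.38% of CKO B cells. Hmgb2, a chromatin protein that rises in dividing cells, went the other way, with 599 CPM in the cDC1-like cells against 266 CPM in the other cDC, as did Tubb5 with 248 CPM against 124 CPM. Summed over 32 cell cycle genes, the cDC1-like cells had a median of 10.1 and the others of 7.45 UMIs per 10000, and the highest cells reached 144 and 178. The 6 WT cells lay between 2.53 and 8.94, and 39 of the 90 CKO cells lay above 8.94. The median of the same sum was 7.98 over all CKO cDC and 10.6 in CKO B cells. It thus went the other way from the shares of cells with Mki67 or Top2a.

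Cd300a, an inhibitory receptor, was among the genes most unequal between the sides without being named by the rule, at 43.3 CPM in the cDC1-like cells against 381 CPM in the other cDC, with a UMI in 13 of 55 cells against 32 of 35. It was chosen after its values were seen, and its WT reading of 8 UMIs against 1 did not show the same direction.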
